A study of Mus musculus with 12 samples.

Results

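Solute carriers are membrane proteins that move ions, sugars, vitamins, amino acids and other small molecules across the cell surface and the membranes of organelles. The 119 genes described here are the protein-coding solute carriers with at least 120 reads summed over 12 libraries, after leaving out the large families for glutamate and neutral amino acids (Slc1a), glucose (Slc2a), cationic and exchanged amino acids (Slc3a and Slc7a), divalent metals and iron (Slc11a and Slc40a), monocarboxylates (Slc16a), mitochondrial metabolites (Slc25a), zinc (Slc30a and Slc39a) and the Slc38a amino acid carriers. They are 119 of 198 genes with these symbols at any read total, among 322 protein-coding Slc genes and 24934 genes in the count table. Members were chosen by symbol and selected on this read total, while Slco4a1, Slc24a5 and Slc18a1 were named in the rule with their values in these libraries known, so their levels are given as a description with no test. All 119 passed the filter on low counts that left 13249 genes to test. The lowest totals inside the limit were 126 reads for Slc27a3, 147 for Slc8a1 and 162 for Slc17a7, and the highest outside it were 111 for Slc23a1, 107 for Slc51a and 87 for Slc4a5. Slc4a1ap and Slc9a3r1 carry a carrier's name but encode an adaptor and a scaffold protein, and both were kept because the choice was made by symbol.

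BV2 is an immortalised mouse microglial line, used in culture in place of the resident macrophages of the brain. The study had 3 groups of 4 libraries. No treatment is listed for Control. OGD stands for oxygen-glucose deprivation followed by re-oxygenation, and the Acacetin group was given acacetin, a flavone found in plants, at 10 µM. The labels of the Acacetin libraries name the compound only, and it is the design text that places it after deprivation and re-oxygenation. Neither the length of deprivation nor a group with acacetin alone is given in the labels. Nothing in the labels ties the 4 libraries to separate cultures, so every p-value measures the spread between these libraries, which may be technical.

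Libraries held 16427886 to 32693066 reads. The 18S ribosomal RNA took 13.1% of the reads in OGD 2 and 21.3% in OGD 3, against 0.137% to 1.86% in the other 10 libraries, so counts of called genes are also given without these 2 libraries. Levels also differed with gene length. The slope of log2 level on log2 length, relative to the mean over libraries, was highest in Acacetin 3 (0.252) and lowest in Acacetin 1 (−0.176). Within groups, log2 levels of libraries correlated at 0.918 to 0.990 in Acacetin, 0.972 to 0.992 in OGD and 0.987 to 0.994 in Control. The 12 markers listed for microglia and macrophages summed to 2972 to 3730 CPM (reads of a gene relative to the TMM-scaled depth of its library) in Control, 2946 to 4098 in OGD and 2423 to 3484 in Acacetin. Markers of astrocytes, neurons and fibroblasts summed to at most 0.398 CPM in any library, those of oligodendrocytes to at most 2.62 and those of endothelium to at most 2.20. Summed over all 119 members, the level was 2916 to 3689 CPM in Control, 3908 to 4390 in OGD and 3369 to 4690 in Acacetin. Control and OGD did not overlap in this sum, which includes the genes named in the rule and was not taken without them. In bulk RNA, a change in how many cells of a kind are present and a change in the RNA per cell cannot be told apart.

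Carriers are named by family number, and a family usually shares a mechanism more than a substrate. Members of Slc6a use the sodium gradient to take up neurotransmitters, osmolytes such as betaine and taurine, and creatine. Slc9a, Slc4a and Slc12a set intracellular pH, bicarbonate and chloride, which shift when glycolysis produces acid in cells short of oxygen. Slc35 proteins bring nucleotide sugars into the endoplasmic reticulum and Golgi for glycosylation, and Slc15a3, Slc15a4, Slc29a3 and Slc66a1 sit in lysosomes and endosomes, where macrophages and microglia recover nutrients and run nucleic acid sensors.

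The upstream sequences of 4 members that stood higher in OGD are shown first, for comparison of what lies before their start sites. They were picked among the members named below for which RefSeq tables held a sequence. Each is the stretch of 250 bases before the annotated start in RefSeq (GRCm38.p6), 5′ to 3′ on the strand of the gene. Such a sequence was matched for 92 of the 119 members. Slco4a1 lies on the plus strand of chromosome 2 at chr2:180455995-180456244 (the first of 2 listed starts), Slc24a5 on the plus strand at chr2:125067877-125068126, Slc41a2 on the minus strand at chr10:83337818-83338067 and Slc6a12 on the plus strand at chr6:121342324-121342573 (the first of 5 listed starts). Capitals mark matches to the motifs searched.
Slco4a1: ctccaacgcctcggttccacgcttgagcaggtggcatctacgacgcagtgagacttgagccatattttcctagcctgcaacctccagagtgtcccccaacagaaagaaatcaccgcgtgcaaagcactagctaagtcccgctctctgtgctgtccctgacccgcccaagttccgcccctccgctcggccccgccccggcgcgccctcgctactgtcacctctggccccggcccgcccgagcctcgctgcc
Slc24a5: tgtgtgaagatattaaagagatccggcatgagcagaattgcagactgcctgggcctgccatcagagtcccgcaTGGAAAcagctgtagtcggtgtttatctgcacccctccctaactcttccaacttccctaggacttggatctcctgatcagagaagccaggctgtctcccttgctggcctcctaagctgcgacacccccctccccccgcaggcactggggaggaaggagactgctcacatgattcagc
Slc41a2: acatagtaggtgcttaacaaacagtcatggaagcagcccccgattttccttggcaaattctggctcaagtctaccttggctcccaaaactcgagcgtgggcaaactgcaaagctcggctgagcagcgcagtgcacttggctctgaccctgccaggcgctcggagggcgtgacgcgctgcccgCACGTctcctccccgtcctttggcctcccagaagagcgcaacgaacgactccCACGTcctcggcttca
Slc6a12: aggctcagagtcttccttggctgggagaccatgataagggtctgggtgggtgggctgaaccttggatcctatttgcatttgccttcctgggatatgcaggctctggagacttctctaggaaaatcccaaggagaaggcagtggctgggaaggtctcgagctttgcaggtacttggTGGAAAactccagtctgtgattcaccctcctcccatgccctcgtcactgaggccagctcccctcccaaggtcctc

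The motifs searched on both strands were ACGTG, the core of the hypoxia response element, TGATGNAA, a core bound by ATF4, the E-box CACGTG, which contains ACGTG, and TGGAAA, the core of the tonicity element. Slc41a2 held ACGTG at 2 places, both on the opposite strand and so printed as its reverse complement. Slc24a5 held TGGAAA 177 bases before its start and Slc6a12 held it 75 bases before. The Slco4a1 sequence held none of the 4. The form GCGTG of the hypoxia core was not searched, and it is present, without capitals, in the printed Slco4a1 and Slc41a2 sequences. Over the members, ACGTG was found in 19.6% of 92 sequences, against 16.6% of 27025 sequences of the same length before all RefSeq genes in the table, and in 16.1% of the 31 before members called higher in OGD. TGGAAA was found in 15.2%, 18.7% and 12.9% of the same 3 sets, TGATGNAA in 3.26%, 3.53% and 0%, and CACGTG in 12%, 6.05% and 9.68%. A match describes letters in the sequence and says nothing of binding.

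Slco4a1, Slc24a5 and Slc18a1 stood higher in all 4 OGD libraries and in all 4 Acacetin libraries than in any Control library. Slco4a1, which encodes an organic anion transporter of the OATP family known to carry thyroid hormones and prostaglandins (ENSMUSG00000038963.16, chromosome 2), had 64.3, 56.6, 63.0 and 46.0 CPM in Control. The 4 OGD libraries had 166, 202, 189 and 191 CPM, and the 4 Acacetin libraries had 223, 276, 191 and 184 CPM. Every OGD and Acacetin library lay above every Control library, and the level in OGD was 3.25-fold that in Control, a log2 fold change of 1.70 (SE 0.16).

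Slc24a5 encodes a potassium-dependent sodium-calcium exchanger of intracellular membranes, best known for its part in melanosomes and pigmentation (ENSMUSG00000035183.15, chromosome 2). It had 15.1, 14.3, 17.2 and 12.7 CPM in Control and 56.3, 105, 79.4 and 62.3 CPM in OGD, which is 5.11-fold higher (log2 2.35, SE 0.21). Acacetin libraries had 52.6, 79.0, 57.2 and 48.7 CPM. The highest OGD value was that of OGD 2, one of the libraries rich in 18S RNA, and the log2 fold change without OGD 2 and OGD 3 was 2.01. Myef2 overlaps Slc24a5 on the opposite strand and averaged 5.18 CPM in Control and 8.54 in OGD, below Slc24a5 itself in both.

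Slc18a1 encodes the vesicular monoamine transporter VMAT1 (ENSMUSG00000036330.13, chromosome 8) and was close to the limit of detection in Control, at 0.491, 0.332, 0.516 and 0.166 CPM. It had 1.80, 3.65, 3.75 and 3.51 CPM in OGD and 3.94, 5.50, 3.00 and 2.68 CPM in Acacetin. The fold was 8.39 (log2 3.07, SE 0.40), the largest of the 119 members, on the smallest base of the 3 genes. Atp6v1b2, an abundant proton pump subunit that overlaps it on the opposite strand, averaged 269 CPM in Control and 306 in OGD. The strand setting of the read counter is not given in the sources used here, and the part of overlapping reads in this value was not tested.

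**Figure D1:**
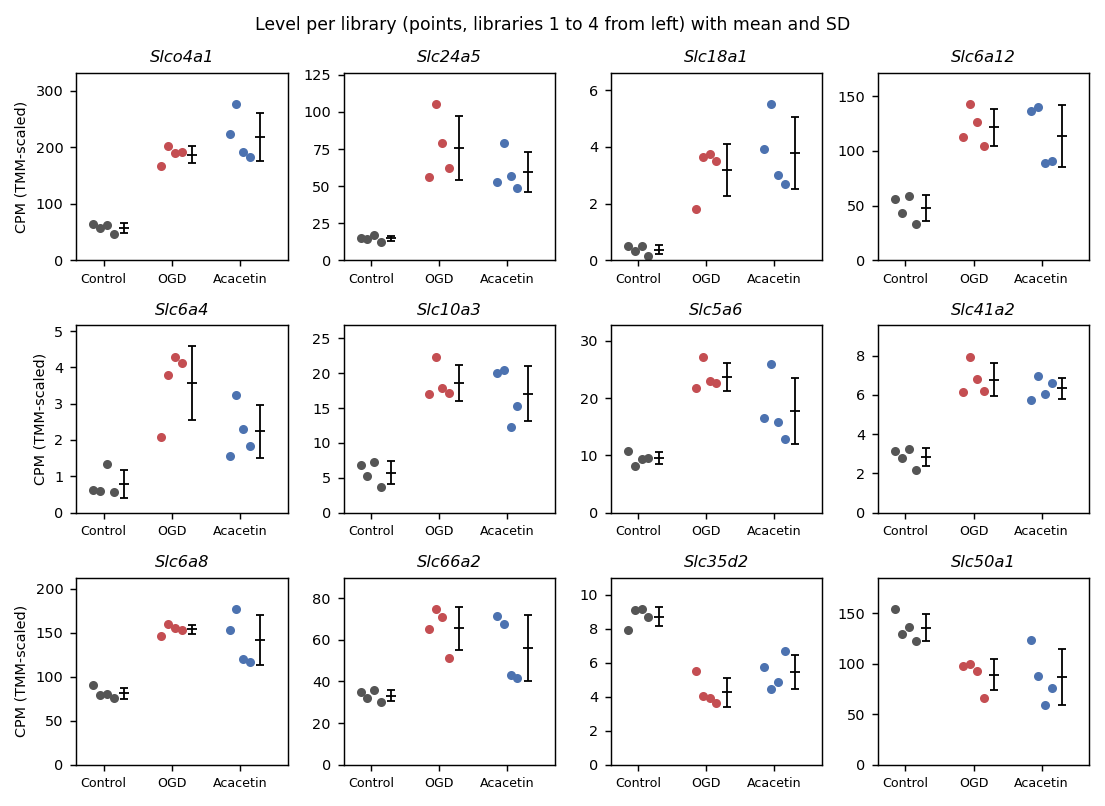
Level in CPM (y axis, linear and starting at 0 in each panel) of 12 solute carrier genes in Control, OGD and Acacetin (x axis). Points are the 4 libraries of a group, and the dash with its bar is their mean and SD. For Slco4a1 the Control points lie between 46.0 and 64.3 CPM and every OGD and Acacetin point lies at 166 CPM or above.

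Across the 119 members, 49 were called in OGD against Control at an adjusted p under 0.05, 40 of them higher and 9 lower. The test was edgeR's quasi-likelihood test with Benjamini-Hochberg adjustment over all 13249 genes, and adjusted p below means this one unless another tool is named. Of all genes tested, 28.8% were called (16.2% higher and 12.6% lower), against 41.2% of the members (33.6% higher and 7.56% lower). Without the 3 genes named in the rule the count was 46 of 116, 37 higher and 9 lower. The median log2 fold change was 0.34 over the members and 0.03 over all genes tested. Members whose Control and OGD libraries did not overlap numbered 63, or 52.9%, against 36% of all genes tested. Leaving out the 3 genes named in the rule, 60 of 116 did not overlap, or 51.7%.

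These counts moved with the libraries and the unit. Leaving out 1 library gave 27 calls without Control 2 (22.7% of members against 20.8% of all genes) to 40 without OGD 1. Without OGD 2 and OGD 3 together, 22 were called, 20 higher and 2 lower, or 18.5% of members against 14.5% of all genes. On the authors' FPKM values, limma called 21 (13 higher and 8 lower), or 17.6% of members against 21.4% of all genes tested, so the excess of members over all genes was not present in that unit. Of the 49, 46 were fitted in all 18 alternatives and 3 (Slc17a7, Slc17a8 and Slc52a3) in 17, and each kept its direction wherever it was fitted. Apart from the 3 genes named in the rule, 11 were called in every alternative, 10 of them higher, Slc10a3, Slc41a2, Slc6a4, Slc6a8, Slc6a12, Slc6a19, Slc5a4b, Slc5a6, Slc66a2 and Slc35a4, and 1 lower, Slc35d2. Besides these, Slc29a2, Slc35b3, Slc35d1, Slc35e1, Slc4a2 and Slc6a6 were still called without OGD 2 and OGD 3, and Slc13a2, Slc17a7, Slc41a3, Slc50a1, Slc52a3 and Slc9a5 on log2(FPKM + 1). The remaining calls of OGD against Control outside the 3 rule genes were lost in both of those fits.

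**Figure D2:**
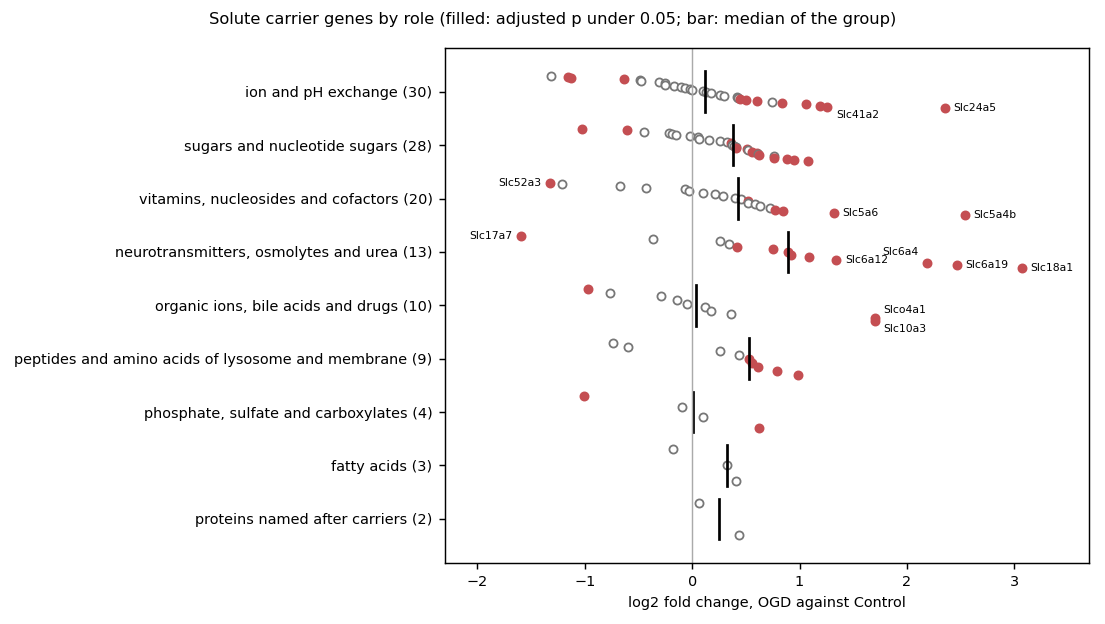
Log2 fold change of OGD against Control (x axis) for each of the 119 members, the genes named in the rule included. Rows are by role, with the number of members in brackets. Filled points have an adjusted p under 0.05, open points do not, and the vertical bar is the median of the row, from 0.89 in the row of neurotransmitters, osmolytes and urea to 0.04 among organic ions, bile acids and drugs within rows of 5 or more genes.

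Carriers of neurotransmitters, osmolytes and related amines had the highest median log2 fold change, 0.89. Of 13 members, 9 were called higher, 1 lower and 3 were not called, where 16.2% of all genes tested were higher and 12.6% lower. Slc18a1, named in the rule, is among the 9 and enters the median. Groups follow family number, so this one also holds the neutral amino acid carrier Slc6a19 and the sialic acid exporter Slc17a5. The myo-inositol transporter Slc5a3, which carries an osmolyte, is placed with the vitamin carriers and was not called (log2 0.28, edgeR adjusted p = 0.836). Of the 8 Slc6a genes, 7 were called higher. Slc6a12, which encodes the betaine and GABA transporter BGT1 (ENSMUSG00000030109.16, chromosome 6), had 56.1, 43.5, 58.9 and 32.9 CPM in Control and 112, 142, 127 and 104 CPM in OGD. The groups did not overlap, and it rose 2.54-fold (log2 1.34, SE 0.21, edgeR adjusted p = 0.000474). Slc6a4, the serotonin transporter (ENSMUSG00000020838.13, chromosome 11), had 0.614, 0.581, 1.35 and 0.564 CPM in Control and 2.08, 3.80, 4.30 and 4.12 CPM in OGD. It rose 4.57-fold from that low level (log2 2.19, SE 0.37, edgeR adjusted p = 0.000796). Slc6a6, the taurine transporter, had 32.6, 38.1, 29.3 and 36.8 CPM in Control and 54.0, 54.9, 60.1 and 84.9 CPM in OGD, with no overlap. It rose by a log2 fold change of 0.89 (SE 0.18, edgeR adjusted p = 0.00208), and limma on log2(FPKM + 1) gave 0.60 with an adjusted p of 0.134.

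The other members of this group, like all members given values outside the naming rule, were chosen after their values were seen. Slc6a8, the creatine transporter, stood at 75.4 to 90.2 CPM in Control and 147 to 160 in OGD, with a log2 fold change of 0.92 (SE 0.14, edgeR adjusted p = 0.000437). Slc6a19, a neutral amino acid carrier known from kidney and gut, went from 0.166 to 0.788 CPM in Control to 2.27 to 3.51 in OGD (log2 2.46, SE 0.39, edgeR adjusted p = 0.000542). Slc6a9, the glycine transporter GlyT1, rose by 0.75 (SE 0.19, edgeR adjusted p = 0.00972). That call was lost without OGD 2 and OGD 3 together (adjusted p = 0.0736) and in FPKM (0.106). Slc6a17, a vesicular amino acid carrier, was called at 0.0429, and this call was lost on leaving out any 1 of the 8 libraries, with adjusted p from 0.0545 to 0.113. Slc6a13, the GABA transporter GAT2, which lies beside Slc6a12 in the same family, had a log2 fold change of 0.34 (SE 0.20) and was not called (edgeR adjusted p = 0.217).

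The vesicular carriers of the Slc17a family differed in sign. Slc17a7, the vesicular glutamate transporter VGLUT1, had 0.595 to 1.60 CPM in Control and 0.0781 to 0.568 in OGD, and it fell by 1.59 on the log2 scale (SE 0.44, edgeR adjusted p = 0.0153). Without Control 1 its adjusted p was 0.0565. Slc17a8, the related VGLUT3, had 0.290 to 0.754 CPM in Control and 0.617 to 1.14 in OGD, with a log2 fold change of 1.08 (SE 0.35, edgeR adjusted p = 0.0330). Its call was lost without Control 1, 2 or 4 or OGD 1, 2 or 3, with adjusted p from 0.0675 to 0.101. Both were below 2 CPM in every library. Slc17a5, the lysosomal sialic acid exporter, and Slc17a9, a vesicular nucleotide carrier, were not called (edgeR adjusted p = 0.159 and 0.181).

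Among 10 carriers of organic ions, bile acids and drugs, 2 were called higher and 1 lower, and the median log2 fold change was 0.04. That is close to the 28.8% called over all genes tested, and Slco4a1, named in the rule, is 1 of the 2. Besides Slco4a1, Slc10a3 rose, a member of the bile acid carrier family whose substrate is not established (ENSMUSG00000032806.14, chromosome X). It had 6.83, 5.18, 7.22 and 3.62 CPM in Control and 17.1, 22.4, 17.8 and 17.2 CPM in OGD, with no overlap (log2 1.70, SE 0.23, edgeR adjusted p = 0.000243). Ubl4a, which overlaps it on the same strand, averaged 111 CPM in Control and 108 in OGD. Slc22a15 fell by 0.97 on the log2 scale (SE 0.28, edgeR adjusted p = 0.0184). Its adjusted p was 0.0510 without Control 2 and 0.109 without OGD 2 and OGD 3. With limma on log2(FPKM + 1) the adjusted p was 0.127 and the log2 fold change −0.09. There the added 1 far exceeds the level of the gene, whose mean FPKM was 0.1375 in Control and 0.0675 in OGD. The call of Slc22a15 was also lost with limma on log2(FPKM + 0.1). The carnitine carrier Slc22a5 had 2.34 to 3.75 CPM in Control and 2.80 to 4.00 in OGD, overlapping ranges (edgeR adjusted p = 0.758).

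Slc18a1, Slc41a2 and Slc10a3 had the patterns most like that of Slco4a1, with Pearson correlations of log2 CPM over the 12 libraries of 0.99, 0.97 and 0.96. This is a description. The 12 points share the group difference between Control and the other libraries, which was among the values that brought Slco4a1 and Slc18a1 into view.

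Of 30 carriers for ion and pH exchange, 8 were called higher, 3 lower and 19 were not called. Slc24a5, named in the rule, is among the 8. The median log2 fold change was 0.12, and 16.2% of all genes tested were called higher and 12.6% lower. Slc41a2, a magnesium carrier (ENSMUSG00000034591.6, chromosome 10), had 3.11, 2.78, 3.21 and 2.19 CPM in Control and 6.13, 7.94, 6.80 and 6.17 CPM in OGD. The groups did not overlap, and it rose 2.39-fold (log2 1.26, SE 0.20, edgeR adjusted p = 0.000529). Its relative Slc41a3, a mitochondrial magnesium carrier, had 2.82 to 3.15 CPM in Control and 0.520 to 1.93 in OGD and was called lower (log2 −1.16, SE 0.39, edgeR adjusted p = 0.0376). That call was lost without any 1 of the 4 Control libraries, OGD 3 or OGD 4, with adjusted p from 0.0604 to 0.0790. Slc41a1, the plasma membrane member of the family, had 9.83 to 12.7 CPM in Control and 8.90 to 13.3 in OGD (not called, edgeR adjusted p = 0.987).

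Acid and bicarbonate carriers went different ways. Slc9a5, a sodium-hydrogen exchanger (ENSMUSG00000014786.9, chromosome 8), had 6.96, 7.84, 5.43 and 8.79 CPM in Control and 4.17, 3.50, 2.19 and 3.35 CPM in OGD. The groups did not overlap, and it fell by 1.12 on the log2 scale (SE 0.30, edgeR adjusted p = 0.0129), with adjusted p of 0.0527 without Control 4, 0.0592 without OGD 3 and 0.156 without OGD 2 and OGD 3 together. Slc9a4, another exchanger of the family, had 1.41 to 1.76 CPM in Control and 2.56 to 4.22 in OGD and rose (log2 1.19, SE 0.30, edgeR adjusted p = 0.00857), a call lost without OGD 2 and OGD 3 together (adjusted p = 0.110) and in FPKM (0.153).

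Slc4a2, the chloride-bicarbonate exchanger AE2, had 26.2 to 45.3 CPM in Control and 53.4 to 68.1 in OGD and rose (log2 0.84, SE 0.18, edgeR adjusted p = 0.00338), with an adjusted p of 0.0554 in FPKM. Fastk, on the opposite strand of the same locus, averaged 105 CPM in Control and 62.7 in OGD. The cation-chloride cotransporters of Slc12a, which set cell volume and chloride, had 0 of 6 members called. Slc12a2, the cotransporter NKCC1, had 1.43, 1.45, 0.635 and 2.19 CPM in Control and 2.24, 1.80, 1.56 and 3.87 CPM in OGD, with overlap (log2 0.74, SE 0.47, edgeR adjusted p = 0.270). At these low levels a change of that size could not be told from the spread between libraries.

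The copper importer Slc31a1 had 14.04, 14.6, 14.3 and 18.1 CPM in Control and 20.4, 25.7, 20.2 and 26.4 CPM in OGD, with no overlap. It rose (log2 0.61, SE 0.18, edgeR adjusted p = 0.0239), but the call was lost without Control 1, 2 or 3 or OGD 2 or 4, with adjusted p from 0.0612 to 0.0673. Slc26a11, an anion carrier of the sulfate family, had 5.08, 5.89, 5.16 and 6.80 CPM in Control and 4.14, 3.10, 3.44 and 4.06 CPM in OGD. It fell by 0.63 on the log2 scale (SE 0.20, edgeR adjusted p = 0.0312), and the adjusted p was 0.0753 to 0.0980 without Control 2, Control 4, OGD 2 or OGD 3. Slc26a2, a sulfate carrier needed for proteoglycans, was called higher (log2 1.06, edgeR adjusted p = 0.0217), and its adjusted p was 0.0543 to 0.0971 without Control 2, Control 4, OGD 3 or OGD 4. Slc4a8 and Slc9a8 were called at 0.0485 and 0.0243. Slc4a8 lost its call without any 1 of the 8 libraries (0.0580 to 0.155), and Slc9a8 without Control 2, 3 or 4 or OGD 2 or 3 (0.05003 to 0.0879).

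Of 28 carriers of sugars and nucleotide sugars, 10 were called higher, 2 lower and 16 were not called, and the median log2 fold change was 0.38. Within this group, 8 of 21 Slc35 genes were called higher and 1 lower. For all genes tested the shares were 16.2% higher and 12.6% lower. Slc35a4, of the nucleotide sugar transporter family (ENSMUSG00000033272.13, chromosome 18), had 74.5, 61.5, 68.8 and 57.7 CPM in Control and 113, 117, 107 and 109.6 CPM in OGD. The groups did not overlap, and it rose 1.70-fold (log2 0.77, SE 0.14, edgeR adjusted p = 0.00128). Slc35d2, which carries UDP-N-acetylglucosamine and related sugars into the Golgi (ENSMUSG00000033114.12, chromosome 13), had 7.90, 9.08, 9.16 and 8.69 CPM in Control and 5.49, 4.05, 3.91 and 3.61 CPM in OGD. It fell by 1.03 on the log2 scale (SE 0.20, edgeR adjusted p = 0.00209), again with no overlap. Its relative Slc35d1, which brings UDP-glucuronic acid and UDP-N-acetylgalactosamine into the endoplasmic reticulum, had 4.22 to 5.32 CPM in Control and 8.15 to 12.4 in OGD and rose (log2 1.08, SE 0.20, edgeR adjusted p = 0.00138). For Slc35d1 the adjusted p in FPKM was 0.0783.

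Slc35e1 and Slc35b3, the latter a Golgi carrier of the sulfate donor PAPS, rose by 0.62 (edgeR adjusted p = 0.00176) and 0.89 (0.00311), and both were kept when any 1 library was left out. The adjusted p in FPKM was 0.103 for Slc35e1 and 0.0816 for Slc35b3. Slc35b2, the main PAPS carrier, had 127 to 198 CPM in Control and 181 to 258 in OGD and was not called (log2 0.52, SE 0.21, edgeR adjusted p = 0.0859). It stayed uncalled in 16 of 18 alternatives, with adjusted p from 0.0131 to 0.291 over them. The replicate number as a block was among those that called it (0.0187). Slc35b1, Slc35b4, Slc35e4, Slc35g1, Slc37a1 and Slc37a2 were called higher with adjusted p between 0.0159 and 0.0471, and each call was lost without at least 1 library. For Slc35b1 the libraries were Control 2 and OGD 2 (0.0537 and 0.0567), and for Slc35g1 Control 2 and OGD 4 (0.0520 and 0.0563). For Slc35e4 they were Control 2, Control 3, OGD 1 and OGD 2 (0.0505 to 0.0586), and for Slc35b4 all but OGD 1 (0.0542 to 0.0870). Slc37a1 lost its call without any 1 of the 8 (0.0527 to 0.110), and Slc37a2 without any but Control 3 and OGD 3 (0.0614 to 0.132).

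Slc50a1, a sugar carrier of the SWEET family (ENSMUSG00000027953.14, chromosome 3), had the highest FPKM of all 119 members in Control, 78.6 ± 4.83 (SD, n = 4), and fell to 46.6 ± 9.25 in OGD. In CPM it had 154, 129, 136 and 123 in Control and 97.7, 99.5, 93.2 and 66.2 in OGD, with no overlap. The log2 fold change was −0.61 (SE 0.20, edgeR adjusted p = 0.0350) from counts and −0.76 (limma adjusted p = 0.00243) from log2(FPKM + 1). From counts the call was lost without Control 1, 2 or 3 or OGD 2 or 4, with adjusted p from 0.0514 to 0.0943. In FPKM, which is scaled by gene length, the next highest members in Control were the scaffold Slc9a3r1 at 57.8 ± 7.91, the Golgi family member Slc35c2 at 57.2 ± 8.37, Slc15a3 at 43.4 ± 2.75 and Slc35b2 at 43.3 ± 6.19. The differences among Slc9a3r1 and Slc35c2, and between Slc15a3 and Slc35b2, were smaller than their SDs.

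**Figure D3:**
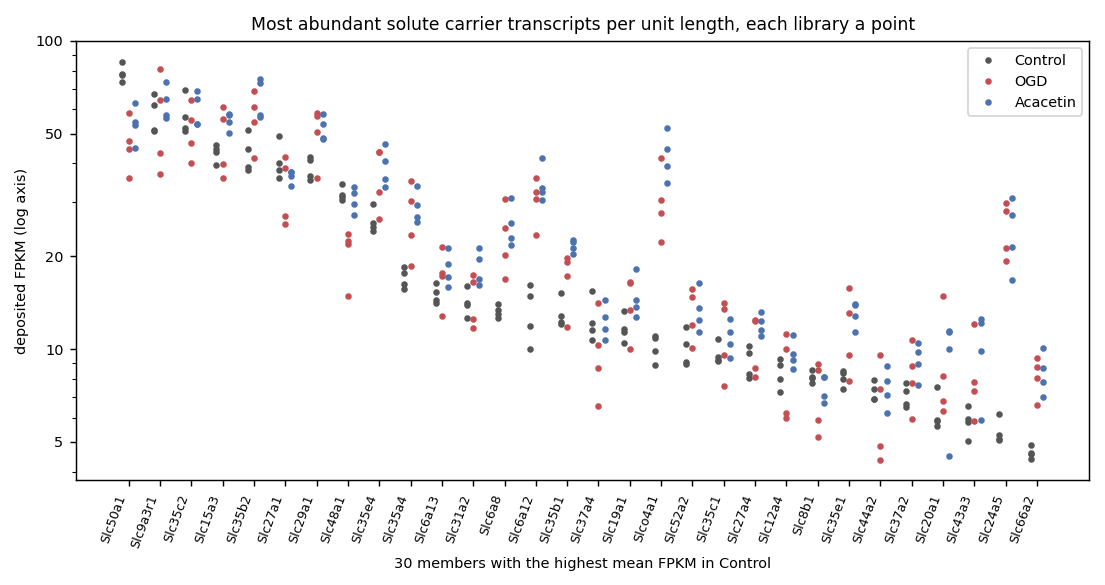
Deposited FPKM (y axis, log scale) of the members with the highest mean in Control (x axis, by gene), with 1 point for each library of Control, OGD and Acacetin. Slc50a1 stands first in Control with a mean of 78.6 FPKM and has lower means in OGD (46.6) and in Acacetin (53.9).

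Of 20 carriers of vitamins, nucleosides and cofactors, 5 were called higher, 1 lower and 14 were not called. The share called is close to the 28.8% over all genes tested, and the median log2 fold change was 0.43. Slc5a6, the sodium-dependent multivitamin transporter for biotin and pantothenate (ENSMUSG00000006641.13, chromosome 5), had 10.8, 8.21, 9.40 and 9.55 CPM in Control and 21.8, 27.2, 23.0 and 22.7 CPM in OGD. The groups did not overlap, and it rose 2.49-fold (log2 1.32, SE 0.20, edgeR adjusted p = 0.000407). Atraid, on the opposite strand of its locus, averaged 58.6 CPM in Control and 41.6 in OGD. Slc5a4b, placed here with its family although its relatives carry or sense glucose, had 0.246 to 0.622 CPM in Control and 1.29 to 4.00 in OGD (log2 2.54, SE 0.44, edgeR adjusted p = 0.000981). Without OGD 2 and OGD 3 its log2 fold change was 1.95 (adjusted p = 0.0206). The 14 members with a mean below 1 CPM over all libraries are measured with little depth, and 3 of them were called.

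Slc29a2, the nucleoside transporter ENT2, had 7.56 to 11.9 CPM in Control and 14.8 to 19.6 in OGD and rose (log2 0.84, SE 0.19, edgeR adjusted p = 0.00522), with an adjusted p of 0.0643 in FPKM. The more abundant ENT1 gene Slc29a1 had 153 to 203 CPM in Control and 219 to 307 in OGD and was called at 0.0413, a call lost without any 1 of the 4 Control libraries, OGD 1 or OGD 2 (0.0563 to 0.122). Slc29a3, the lysosomal member, had 5.12, 4.85, 4.01 and 4.64 CPM in Control and 5.30, 5.05, 5.31 and 9.84 CPM in OGD. It was not called (log2 0.46, SE 0.27, edgeR adjusted p = 0.222). Slc33a1, the acetyl-CoA carrier of the endoplasmic reticulum, was called higher at 0.0192 (log2 0.77), and its adjusted p was 0.0506 to 0.0593 without Control 1, 3 or 4 or OGD 3. Slc52a3, a riboflavin carrier, had 0.674 to 1.15 CPM in Control and 0.195 to 0.450 in OGD and fell by 1.32 on the log2 scale (edgeR adjusted p = 0.0251), with 0.0718 and 0.0783 as the values without Control 1 and OGD 4.

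Among 9 carriers of peptides and amino acids in lysosomes and the plasma membrane, 5 were called higher, 0 lower and 4 were not called. The median log2 fold change was 0.53, and 16.2% of all genes tested were called higher and 12.6% lower. Slc66a2, of the PQ-loop family (ENSMUSG00000034006.18, chromosome 18), had 34.8, 32.3, 35.7 and 30.1 CPM in Control and 65.2, 74.8, 71.1 and 51.2 CPM in OGD. It rose 1.98-fold with no overlap (log2 0.98, SE 0.19, edgeR adjusted p = 0.00164). Slc15a4, the endolysosomal histidine and peptide carrier that anchors the adaptor TASL for interferon signalling, had 24.8, 23.9, 21.9 and 22.1 CPM in Control and 35.0, 35.0, 33.7 and 32.7 CPM in OGD. The groups did not overlap and it rose by 0.56 (SE 0.17, edgeR adjusted p = 0.0243), but without Control 2, Control 3, OGD 1 or OGD 2 the adjusted p was 0.0518 to 0.0638. Slc15a3, its more abundant relative, had 311, 261, 293 and 258 CPM in Control and 349, 331, 348 and 320.5 CPM in OGD. Those ranges did not overlap either, yet Slc15a3 was not called (log2 0.26, SE 0.15, edgeR adjusted p = 0.209).

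Slc43a3, known to carry purine nucleobases, rose by 0.62 (SE 0.14, edgeR adjusted p = 0.00460), with an adjusted p of 0.0637 without OGD 2 and OGD 3 and of 0.242 in FPKM. The lysosomal exporter of lysine and arginine Slc66a1 and the proton-coupled amino acid carrier Slc36a1 were called at 0.0300 and 0.0237. Slc66a1 lost its call without Control 2, 3 or 4 or OGD 1 or 3 (0.0577 to 0.0823), and Slc36a1 without Control 2, 3 or 4 or OGD 1 or 4 (0.0533 to 0.0742).

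Of 4 carriers for phosphate, sulfate and carboxylates, 1 was called higher and 1 lower, where 28.8% of all genes tested were called. Slc20a1, a sodium-phosphate cotransporter, had 39.0, 39.0, 39.2 and 45.3 CPM in Control and 52.2, 57.3, 62.2 and 79.1 CPM in OGD. It rose by 0.63 (SE 0.18, edgeR adjusted p = 0.0209), but without Control 1, 2 or 3 or OGD 3 or 4 the adjusted p was 0.0527 to 0.0647, and in FPKM 0.350. Slc13a2, a carrier of dicarboxylates and citrate, fell by 1.00 on the log2 scale (SE 0.34, edgeR adjusted p = 0.0386), with adjusted p of 0.101 to 0.112 without Control 1, Control 2, OGD 2 or OGD 4. The 3 fatty acid carriers of Slc27a and the 2 proteins that are not carriers had 0 members called.

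Genes that work with these carriers were listed for comparison: kinases and scaffolds that regulate them, ion pumps, osmotic response genes, the TASL pathway and transporters without an Slc symbol. Of 30 listed, 23 were tested, and 7 were called higher, 2 lower and 14 were not called in OGD. Among all genes tested, 16.2% were called higher and 12.6% lower. Among pumps, Atp2a2, the calcium pump of the endoplasmic reticulum, rose by 0.94 (SE 0.24, edgeR adjusted p = 0.00911), while the related Atp2a3 fell by 1.75 (SE 0.33, edgeR adjusted p = 0.00162). Oxsr1, the kinase that acts on cation-chloride cotransporters, rose by 0.60 (SE 0.15, edgeR adjusted p = 0.00984). Also called higher were Akr1b3, which makes the osmolyte sorbitol (0.63, edgeR adjusted p = 0.0370), and Tasl, Tlr7 and Tlr9 of the endolysosomal pathway (1.35, 1.56 and 1.33, edgeR adjusted p = 0.0376, 0.0403 and 0.00451). Flvcr1 fell by 0.96 (edgeR adjusted p = 0.00723). Nfat5, the transcription factor of the osmotic response, was not called (log2 0.45, SE 0.68, edgeR adjusted p = 0.667).

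The comparison of Acacetin with OGD asks what the compound changed after deprivation. No member was called, as was the case for all 13249 genes tested with edgeR (0%). At an unadjusted p under 0.05 there were 4 members, 3.36% of the 119, against 5.17% of all genes tested. With DESeq2, 32 genes of the whole table were called, 0 of them members, and 9 members had an unadjusted p under 0.05. The Acacetin and OGD libraries did not overlap for 3 members, or 2.52%, against 2.35% of all genes. The smallest adjusted p among the members was 0.8287, which does not show that the groups were alike.

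The members with the smallest p in each direction were these. Slc26a9, a chloride carrier, had 1.04, 1.199, 1.25 and 0.812 CPM in OGD and 0.665, 0.757, 0.550 and 0.582 CPM in Acacetin, a log2 difference of −0.74 (SE 0.27) with no overlap. Slc6a19 went from 2.27, 3.35, 3.51 and 2.599 CPM to 2.14, 1.54, 1.07 and 1.42 CPM, a log2 difference of −0.93 (SE 0.36), also with no overlap. For Slc45a3 the difference was −0.38 (SE 0.16), with 10.9 to 13.5 CPM in OGD and 7.28 to 10.8 in Acacetin. Each of these had an edgeR adjusted p of 0.8287.

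In the other direction stood Slc35a3, a Golgi carrier of UDP-N-acetylglucosamine (0.79, SE 0.39), its relative Slc35a5 (0.70, SE 0.38) and Slc5a3, the myo-inositol transporter (1.47, SE 0.78), again at an edgeR adjusted p of 0.8287. Slc5a3 had 0.631, 0.0999, 1.17 and 1.49 CPM in OGD and 0.237, 1.16, 6.54 and 1.39 CPM in Acacetin, so 1 library, Acacetin 3, held the high value. Slc35a3 and Slc35a5 were likewise highest in Acacetin 3, at 8.99 and 2.77 CPM. Acacetin 3 was also the library whose levels rose most steeply with gene length (slope 0.252). Mrps6 overlaps Slc5a3 on the same strand and averaged 67.6 CPM in Control and 157 in OGD. Slco4a1 differed between Acacetin and OGD by 0.22 (SE 0.15), Slc18a1 by 0.26 (SE 0.34) and Slc24a5 by −0.35 (SE 0.20) on the log2 scale.

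**Figure D4:**
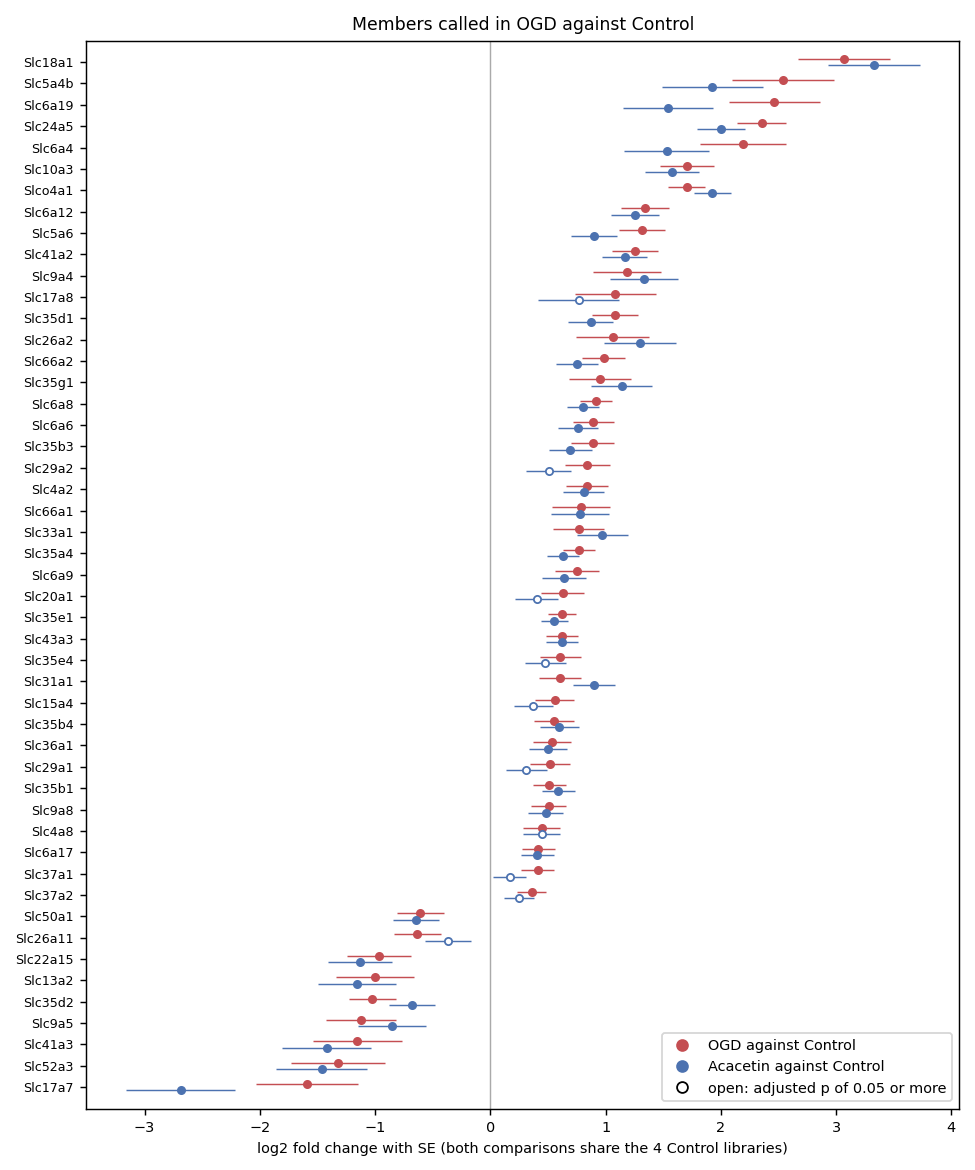
Log2 fold change against Control (x axis) in OGD and in Acacetin for the 49 members called in OGD (y axis), with bars of 1 SE, filled where the adjusted p is under 0.05. Both comparisons use the same 4 Control libraries, so the points of a gene are not independent, and Slc18a1 lies at 3.07 in OGD and 3.33 in Acacetin.

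Against Control, the Acacetin libraries had 44 of 119 members called, 34 higher and 10 lower, or 37.0%, where 26.9% of all genes tested were called (14% higher and 12.9% lower). The median log2 fold change was 0.30 over the members and 0.08 over all genes. Groups did not overlap for 41 members, or 34.5%, against 25.7% of all genes. Leaving out the 3 genes named in the rule, 41 of 116 were called (31 higher and 10 lower, 35.3%), and 38 did not overlap (32.8%). The counts by role below include these 3 genes. The Control libraries are shared with the comparison of OGD, so the 2 results are not independent. By role, 8 of 13 neurotransmitter and osmolyte carriers were higher and 1 lower, 9 of 28 sugar and nucleotide sugar carriers were higher and 2 lower, 7 of 30 ion and pH carriers were higher and 2 lower, and 4 of 9 peptide and amino acid carriers were higher and 1 lower. Among vitamin, nucleoside and cofactor carriers 4 of 20 were higher and 2 lower, among organic ion and drug carriers 2 of 10 were higher and 1 lower, and among the 4 for phosphate and carboxylates 1 was lower.

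Slc18a1 stood at 10.0-fold its Control level in Acacetin (log2 3.33, SE 0.40), Slc24a5 at 4.01-fold (log2 2.00, SE 0.21) and Slco4a1 at 3.80-fold (log2 1.93, SE 0.16). Slc35d2 had 5.75, 4.42, 4.89 and 6.69 CPM in Acacetin, all below the lowest Control library at 7.90. It fell by 0.68 (SE 0.20, edgeR adjusted p = 0.0229), with adjusted p of 0.0557 to 0.0736 without Control 2, 3 or 4 or Acacetin 2. Its call was also lost in the FPKM fits (0.142 and 0.189), with no filter on low counts (0.0657) and without Acacetin 1 and 3 (0.0547). Slc6a12 rose in Acacetin by 1.25 (edgeR adjusted p = 0.000977), Slc6a8 by 0.80 (0.00130), Slc10a3 by 1.58 (0.000559) and Slc41a2 by 1.17 (0.00110). For OGD and Acacetin side by side, Slc5a6 had log2 fold changes of 1.32 and 0.90 against Control, Slc6a4 of 2.19 and 1.53, and Slc31a1 of 0.61 and 0.90.

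Slc23a2, the sodium-dependent vitamin C transporter SVCT2, was called in Acacetin against Control (log2 1.01, edgeR adjusted p = 0.00640) and not in OGD against Control (log2 0.63, edgeR adjusted p = 0.0547). The first call was lost on log2(FPKM + 1) (limma adjusted p = 0.0604), and with the replicate number as a block OGD against Control was called (edgeR adjusted p = 0.0158). It had 16.2, 15.9, 13.5 and 19.97 CPM in Control. Its OGD libraries had 20.4, 23.5, 21.9 and 35.8 CPM, and its Acacetin libraries 20.5, 30.5, 38.9 and 42.0 CPM. The ranges of OGD and Acacetin overlapped, and the difference between them was 0.38 on the log2 scale.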

How the data were processed

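RNA from BV2 cells was sequenced in 12 libraries, 4 per group, from stranded mRNA libraries read as pairs, per the labels' protocols. The authors deposited raw read counts per gene and FPKM values (fragments scaled by gene length and depth). Tools listed per the submitters' processing notes are bcl2fastq, HISAT2 and DESeq2, with the build GRCm39 and neither versions nor roles. Which counter, annotation and strand option produced the counts is not given in the sources used here. Of the members, 20 overlap another protein-coding gene in GENCODE M21 (GRCm38), and reads of such pairs may be split uncertainly.

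Counts were fitted with edgeR 4.0.16 (R 4.3.3) in 1 quasi-likelihood model with a mean per group, TMM scaling and filterByExpr (minimum count 10, minimum total 15), which kept 13249 genes. Two-sided p-values received a Benjamini-Hochberg adjustment over all of them, with calls made under 0.05. CPM values use TMM-scaled library sizes. Alternatives were DESeq2 1.42.0, its size factors, other filters, limma 3.58.1 on log2(FPKM + 1) and log2(FPKM + 0.1), removal of a gene-length trend, a replicate block, and fits without single or paired libraries. The scripts were tested on simulated data. Depth limits counting error only, since reads lack molecular identifiers and may repeat a molecule.

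The members, role lists and naming rule were chosen with earlier results of these data known. Named were, in OGD against Control, called members with a mean of at least 2 CPM and no overlap (up to 8 rises and 8 falls by fold change, of which 4 falls qualified), the smallest p of each role group, and 8 carriers of background interest, 1 of which is not reported here. In Acacetin against OGD they were the 3 smallest p in each direction, and in Acacetin against Control the 3 largest rises and falls by the same conditions, of which 1 fall qualified. Deviations from the group means in Control and OGD libraries of the same number had correlations of 0.257, 0.184, 0.113 and 0.571 for numbers 1 to 4. A pairing by number is possible for these groups, but the labels do not say what the numbers share. Of 12 libraries, 5 had as best match in another group the library of their own number. The main fit does not use the numbers. A fit with the number as a block is an alternative, with 60 members called in OGD against Control, where the main fit called 49. Acacetin and OGD had 0.407, 0.410, −0.143 and 0.453, and Acacetin and Control 0.445, −0.0737, −0.336 and 0.506. In these comparisons not every pair was above 0.1. Sequences came from RefSeq (GRCm38.p6). The files give no gene positions, so chromosomes are given alone.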

Additional observations from a re-analysis of the deposited data

Results flagged for a closer look

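Within groups of 4 libraries, 8 of 81 groups (27 named genes in 3 groups each) had 1 library far from the other 3 in level, or 9.88%, where chance gives about 5%. In Control, the library 4 stood high for Slc20a1 (45.3 CPM against 39.0 to 39.2 in the others), Slc31a1 (18.1 against 14.04 to 14.6) and Slc5a3 (1.06 against 0.555 to 0.581). Control 3 stood high for Slc6a4 (1.35 against 0.564 to 0.614). In OGD, library 1 was low for Slc18a1 (1.80 against 3.51 to 3.75), library 2 was high for Slc10a3 (22.4 against 17.1 to 17.8) and library 4 was high for Slc29a3 (9.84 against 5.05 to 5.31). Acacetin 1 was low for Slc20a1 (33.8 against 57.3 to 61.9).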

How the results depend on the processing

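In OGD against Control, 49 members were called. The count was 21 with limma on log2(FPKM + 1), 22 with limma on log2(FPKM + 0.1), 22 without OGD 2 and 3, and 27 to 40 on leaving out 1 library at a time. The FPKM fits split into 13 higher and 8 lower and into 14 higher and 8 lower, and moved the median log2 fold change of all genes to −0.04 and −0.11. The cause of these differences was not tested, except that fewer libraries enter the fits without some of them. With the replicate block, 60 were called, all 49 among them, so the block ended no call in this comparison. It added 11, Slc52a2, Slc23a2, Slc35b2, Slc46a1, Slc35c1, Slc19a1, Slc35e3 and Slc37a3 higher and Slc48a1, Slc44a1 and Slc49a4 lower (adjusted p from 0.0132 to 0.0454). In Acacetin against Control, 44 were called, and 30 with limma on log2(FPKM + 1), 48 with the replicate block and 32 to 54 on leaving out 1 library. There the block lost Slc9a5 (adjusted p = 0.0632) and Slc36a3 (0.0502). In Acacetin against OGD, 0 were called in every alternative run, the block included. For all genes in that comparison the median log2 fold change was 0.16 and 0.24 in the FPKM fits. Of 396 values of the 22 genes of the naming rule in OGD against Control, 353 stayed on their side of the threshold, 43 lost their call and 0 reversed. Of the 72 in Acacetin against Control, 64 stayed and 8 lost it, and all 113 in Acacetin against OGD stayed. Both counts against Control include Slco4a1, Slc24a5 and Slc18a1, named in the rule with their values known and called in all 18 alternatives. The 8 lost in Acacetin against Control were all of Slc35d2, the only gene there outside these 3. Depth limits the 14 members below 1 CPM.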

Other observations

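Calls in OGD against Control were spread over the levels of the members. Over all genes tested, at any level, 28.8% were called. Of 14 members with a mean under 1 CPM, 3 were called, of 45 between 1 and 10 CPM 18 were called (12 higher), of 50 between 10 and 100 CPM 23 were called (all 23 higher), and of 10 above 100 CPM 5 were called (4 higher). Of the 44 members called in Acacetin against Control, 30 were also called on leaving out any 1 library, and of the 49 in OGD against Control 23 were. All counts of members in this paragraph include the 3 genes named in the rule.

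Slc44a1 and Slc48a1 were just short of the threshold in OGD against Control, and their calls changed with the settings. The choline carrier Slc44a1 had 4.62, 5.27, 4.32 and 8.66 CPM in Control and 2.21, 1.85, 1.41 and 4.29 CPM in OGD (log2 −1.21, SE 0.43, edgeR adjusted p = 0.0501). It was called lower in 6 of 18 alternatives, with adjusted p from 0.00706 to 0.381 over them, and at 0.0201 with the replicate number as a block. The heme carrier Slc48a1 had 102 to 105 CPM in Control and 59.0 to 91.5 CPM in OGD (log2 −0.48, SE 0.17, edgeR adjusted p = 0.0534) and 67.4 to 119 CPM in Acacetin. It was called lower in OGD in 12 of 18 alternatives (adjusted p from 0.00582 to 0.138), the block among them (0.0198). Both were chosen after their values were seen.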
